A study of Mus musculus with 663 samples.

Results

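Lect1, Apoa1, Kazald1, Gatm and Serpine2 are 5 genes of the 43347 gene names in a table of single cells from the fetal and newborn mouse ovary. They were selected by name, on their levels in granulosa cells at postnatal day 6 (P6), so the P6 values of these 5 genes describe that choice and carry no test. All cells carried the NR5A1-eGFP genotype on a mixed background and came from gonads labelled XX. After a trypsin/EDTA digest, live cells with the reporter signal were sorted with Draq7 as the dye for dead cells, so every group below consists of cells in which the Nr5a1 promoter drives eGFP. Small C1 chips then turned the polyadenylated RNA of each captured cell into SMARTer cDNA and Nextera XT libraries. The embryonic (E) stages, named by day, were E10.5 with 71 cells, E11.5 and E13.5 with 106 cells each, E12.5, and E16.5 with 95 cells, and P6 followed with 121 of the 662 cells. Values are RPKM, reads scaled to gene length and library size. A cell at 1 RPKM or more is called positive for a gene.

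Granulosa cells surround the oocyte and build the follicle with it. Their precursors in the fetal gonad carry Foxl2, which encodes a forkhead factor that keeps the ovarian supporting lineage. In growing follicles they make inhibin, whose alpha subunit is encoded by Inha, and Hsd17b1, the enzyme that turns estrone into estradiol. The products of the 5 genes act outside these pathways. Lect1, annotated as Cnmd, encodes chondromodulin, a glycoprotein known from cartilage, where it inhibits the growth of blood vessels. Apoa1 encodes the main protein of high-density lipoprotein. Kazald1 encodes a secreted protein with an insulin-like growth factor binding type domain and a Kazal-type domain. Gatm encodes glycine amidinotransferase, the first enzyme of creatine synthesis. Serpine2 encodes protease nexin 1, an inhibitor of thrombin and of the plasminogen activators.

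The genes lie on 5 chromosomes in GRCm38. Lect1 (ENSMUSG00000022025) spans chr14:79637690-79662170 on the minus strand and Apoa1 (ENSMUSG00000032083) spans chr9:46228580-46230466 on the plus strand. Kazald1 (ENSMUSG00000025213) spans chr19:45075241-45079289 on the plus strand and overlaps 1 other annotated gene, AC132957.1, so its reads could be shared with that gene. Gatm (ENSMUSG00000027199) spans chr2:122594467-122611303 and Serpine2 (ENSMUSG00000026249) chr1:79794197-79861180, both on the minus strand.

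The 250 bases before the RefSeq transcription start of each gene are shown because the 5 genes share their high P6 level, and because a reader may want to compare their sequence. They are credited to RefSeq with build GRCm38.p6 and run 5′ to 3′ on the strand of the gene. Capitals mark matches to the GC box GGGCGG. For Kazald1, which has more than 1 start in the table, the upstream one is shown, which is the start of the annotated gene. The Apoa1, Gatm and Serpine2 starts used by RefSeq lie inside the longer annotated gene spans. Their windows therefore overlap the annotated gene, that of Serpine2 in full and those of Apoa1 and Gatm in part.
Lect1, chr14:79662184-79662433: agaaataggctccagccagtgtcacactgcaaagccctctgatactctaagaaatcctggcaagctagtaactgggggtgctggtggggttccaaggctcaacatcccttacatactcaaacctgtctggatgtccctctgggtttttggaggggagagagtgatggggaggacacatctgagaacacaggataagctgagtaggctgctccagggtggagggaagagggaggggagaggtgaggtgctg
Apoa1, chr9:46228380-46228629: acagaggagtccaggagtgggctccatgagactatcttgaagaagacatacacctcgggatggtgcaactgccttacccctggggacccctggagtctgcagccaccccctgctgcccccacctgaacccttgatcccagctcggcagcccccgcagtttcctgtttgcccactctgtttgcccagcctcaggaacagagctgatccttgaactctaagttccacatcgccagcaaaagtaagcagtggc
Kazald1, chr19:45074991-45075240: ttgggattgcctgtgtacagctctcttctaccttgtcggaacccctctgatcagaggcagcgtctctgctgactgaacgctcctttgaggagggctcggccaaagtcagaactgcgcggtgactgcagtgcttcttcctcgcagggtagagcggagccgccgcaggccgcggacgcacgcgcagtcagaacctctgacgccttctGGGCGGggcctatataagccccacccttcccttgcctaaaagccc
Gatm, chr2:122611278-122611527: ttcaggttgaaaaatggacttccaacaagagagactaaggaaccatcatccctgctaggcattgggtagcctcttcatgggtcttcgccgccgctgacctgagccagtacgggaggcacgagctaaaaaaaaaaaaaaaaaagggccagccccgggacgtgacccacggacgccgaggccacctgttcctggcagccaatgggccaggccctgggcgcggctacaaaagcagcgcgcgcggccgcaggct
Serpine2, chr1:79858666-79858915: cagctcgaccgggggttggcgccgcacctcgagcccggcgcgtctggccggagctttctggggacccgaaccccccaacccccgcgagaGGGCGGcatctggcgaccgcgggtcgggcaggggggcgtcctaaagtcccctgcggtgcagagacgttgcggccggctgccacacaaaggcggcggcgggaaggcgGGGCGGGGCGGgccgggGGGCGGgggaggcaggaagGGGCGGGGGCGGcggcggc
5 motifs were searched on both strands from 250 bases before to 50 after each start. They were AAGGTCA (the NR5A1 type), GTAAACA (forkhead), AGATAA (the GATA type), GGGCGG (the GC box) and TATAAA (the TATA box). The GC box was found in Kazald1, with 1 match before the shown start at position -45, and in Serpine2, with 6 matches between -161 and -13, of which neighbours overlap in the run of capitals. It stood in 35.7% of all 32851 RefSeq promoters of the same length. No exact match to the other 4 motifs stood in the windows of the 5 genes. Near matches were not counted, such as tataag before the shown Kazald1 start, which is 1 base from TATAAA. Over all promoters these motifs were held by 4.72% (NR5A1 type), 3.65% (forkhead), 11.2% (GATA type) and 13.6% (TATA box). The 250 bases before the start were 78.8% G or C in Serpine2, at most 61.2% in the other 4 genes, and 52.4% in the median over all promoters.

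Cells of 1 chip run share their library preparation, so the run, called a capture here and read from the titles, was the replicate. The 12 captures held 40 to 71 cells each: E10.5 had 1 capture, E12.5 had 3 and each other stage had 2. The steps of the low values gave an estimate of depth. Its median per cell was 1.89M to 3.20M reads in 11 captures but 0.147M in the second E12.5 capture. That capture also went against its label: 40 of its 53 cells held at least 1 of 4 Y-linked genes at 1 RPKM or more, 1 cell did in the first E12.5 capture, and 0 cells did in each of the other 10 captures. Some results below give it as its own value. Its cells also enter the E12.5 means over captures, the counts over all fetal cells and the fitted models. No difference rests on it alone.

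Lect1 was close to 0 before birth and among the highest of the 5 genes at P6. Its mean was 246 and 94.01 RPKM in the 2 P6 captures. The E16.5 captures before them had 0.00864 and 0 RPKM, and the E13.5 captures 1.40 and 0.794 RPKM. The 3 E12.5 captures had 0, 0 and 0.00326 RPKM, the 2 E11.5 captures 0.00257 and 1.42 RPKM, and the E10.5 capture 0.0425 RPKM. Both P6 captures lay above all 10 fetal captures. A capture mean does not tell apart fewer cells with a gene from less RNA per cell, so shares of positive cells stand beside the means from here on.

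In the P6 captures 24 of 55 cells (43.6%) and 13 of 66 cells (19.7%) were positive for Lect1, against 4 of 541 fetal cells (0.739%, exact 95% interval 0.202 to 1.88). The fetal means came from single cells. 1 cell at 75.02 RPKM gave the whole Lect1 sum of the second E11.5 capture, 1 cell at 74.1 RPKM that of the first E13.5 capture, and 1 cell at 41.7 RPKM gave 99.1% of that of the second E13.5 capture. Both E13.5 cells were also positive for Gatm and Inha, with Inha at 1.88 and 1.58 RPKM. The second was positive for Foxl2 at 3.08 RPKM and also held 168 RPKM of Dcn, the stromal gene of the matrix protein decorin. The E11.5 cell had 0 RPKM of Inha, Foxl2 and Gatm and 155.2 RPKM of Nr2f2, a nuclear receptor gene of the gonadal stroma that 15 of 16 Inha-positive and 37 of 37 Inha-negative cells of that capture held. In the P6 captures the positive cells had a median of 477 and 318 RPKM of Lect1, with a highest cell at 1779 RPKM.

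**Figure D1:**
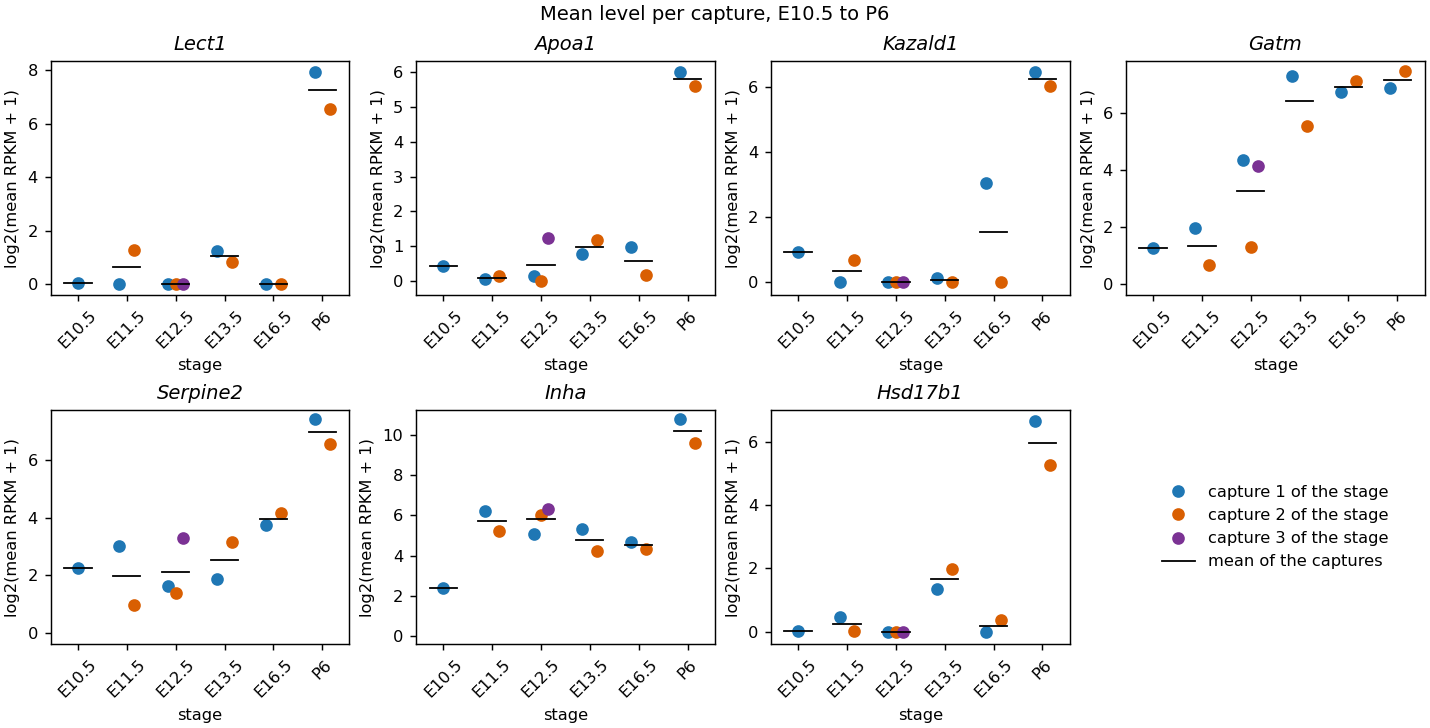
Mean level per capture of the 5 genes and of Inha and Hsd17b1 at each stage, as log2(mean RPKM + 1) on the vertical axis, which has its own range in each panel. Points are captures and lines their mean; Lect1, Apoa1, Kazald1 and Serpine2 are highest in both P6 captures, while the E13.5 and E16.5 captures of Gatm overlap those of P6.

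Apoa1 was detected in a few cells at every stage, at low levels, and was high at P6. It averaged 63.7 and 47.6 RPKM in the P6 captures, against at most 1.37 RPKM in any fetal capture, the third at E12.5. The other fetal captures lay between 0 and 1.29 RPKM. At P6, 17 of 55 cells (30.9%) and 12 of 66 cells (18.2%) were positive, with medians of 118.8 and 91.3 RPKM among positive cells. A single cell at 1313 RPKM gave 37.5% of the Apoa1 sum of the first P6 capture. Of the fetal cells, 30 of 541 were positive (5.55%, interval 3.77 to 7.82), and their highest value was 50.2 RPKM. The P6 captures did not overlap the fetal ones, in mean or in share, since the highest fetal share was 11.3% in the first E13.5 capture.

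Kazald1 had the fewest fetal cells after Lect1. It averaged 88.7 and 64.6 RPKM in the P6 captures, and the fetal captures lay between 0 and 0.925 RPKM except for the first E16.5 capture at 7.36 RPKM. That value came from 2 cells at 212 and 192 RPKM. Both were positive for Foxl2 (61.7 and 66.8 RPKM), for Gatm and for Fst, the gene of the activin-binding protein follistatin, and 1 of them was positive for Inha. The other held 207 RPKM of Dcn. At P6 23 of 55 (41.8%) and 13 of 66 cells (19.7%) were positive, against 5 of 541 cells over all fetal stages (0.924%, interval 0.301 to 2.14). Apart from 3 E16.5 cells below the threshold in the first capture and 1 in the second, no other E16.5 cell had a value above 0.

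Gatm had fetal captures as high as those of P6. It averaged 1.39 RPKM at E10.5, 2.87 and 0.599 RPKM at E11.5, and 19.2, 1.46 and 16.7 RPKM at E12.5. The E13.5 captures had 158.15 and 45.6 RPKM, the E16.5 captures 105.3 and 137.6 RPKM, and the P6 captures 116.2 and 178 RPKM. The P6 captures overlapped those of E13.5 and E16.5. In the E10.5 capture 9.86% of cells were positive. The mean share over captures was 2.83% ± 1.33 for E11.5 (SD, n = 2), 21.3% ± 8.32 for E12.5 (n = 3) and 55.7% ± 22.7 for E13.5 (n = 2). For P6 it was 43.6% ± 10.3, against 51.1% ± 5.46 for E16.5 (SD, n = 2 each).

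Serpine2 was never rare. The P6 captures had 169 and 92.8 RPKM, and the fetal captures lay between 0.945 and 17.1 RPKM, with those of E16.5 highest. Of the 541 fetal cells, 21.4% were positive (interval 18.1 to 25.1). The share was 38.03% in the E10.5 capture, and the means over captures were 19.8% ± 6.67 for E11.5 (SD, n = 2), 15.3% ± 2.17 for E12.5 (n = 3) and 23.6% ± 6.67 for E13.5 (n = 2). For P6 it was 66.8% ± 10.9, against 19.4% ± 4.34 for E16.5 (SD, n = 2 each). The P6 captures lay above every fetal capture in mean and in share. Among positive cells the median was 186 and 79.2 RPKM in the P6 captures, against 2.17 to 42.3 RPKM in the fetal captures, of which the first E16.5 capture was highest.

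Neither E13.5 nor E11.5 is the stage whose levels the members were selected on, and both lie in the same sequencing series. Earlier results of these data were known when the members were chosen, so this contrast is not fully independent of the choice. limma was fitted to log2(capture mean RPKM + 1) of 19710 genes with stage and sequencing series as terms. It called 0 of them at an adjusted p of 0.05 (0%), with 1042 genes at an unadjusted p under 0.05, so 0 of 5 members passed against a background of 0%. Gatm was higher at E13.5 by 5.11 ± 1.04 on the log2 scale (SE, n = 2 captures each), with both E13.5 captures above both E11.5 captures and an adjusted p of 0.317 in limma, which did not pass. The log2 changes of the others were 0.88 for Apoa1, 0.53 for Serpine2, 0.41 for Lect1 and -0.27 for Kazald1, each with an adjusted p of 0.948 or 1. The median over all genes was 0.0056. The count of called genes rested on single captures: it was 204 and 219 without the first and second E11.5 capture, 166 and 170 without the first and second E13.5 capture, and 1 when either the first or the second of the E12.5 captures was left out. Gatm did not pass in any of these, with adjusted p values from 0.102 to 0.586 over 20 alternatives.

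At P6 the 5 genes lay largely in the same cells as Inha. In the first P6 capture 36 of 55 cells were positive for Inha, and in the second 28 of 66. Lect1 was found in 23 of 36 Inha-positive cells (63.9%) against 1 of 19 Inha-negative cells (5.26%) in the first capture, and in 10 of 28 (35.7%) against 3 of 38 (7.89%) in the second. Apoa1 was found in 17 of 36 (47.2%) and 12 of 28 (42.9%) Inha-positive cells and in 0 of 19 and 0 of 38 Inha-negative cells, counts that allow shares of up to 15.8% and 7.89%, taken as 3 cells of the total, or 17.6% and 9.25% by the exact 95% interval. Kazald1 was found in 21 of 36 (58.3%) against 2 of 19 (10.53%), and in 12 of 28 (42.9%) against 1 of 38 (2.63%). No Inha-negative cell had Kazald1 at 10 RPKM or more. Lect1 was at 10 RPKM or more in 3 of the 4 Inha-negative cells that held it. The highest of these, in the second capture, had 1176 RPKM, above the highest Inha-positive cell of that capture at 1151 RPKM.

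Gatm and Serpine2 were found in more Inha-negative cells than the other genes were. Gatm was found in 24 of 36 (66.7%) Inha-positive against 4 of 19 (21.1%) Inha-negative cells in the first P6 capture, and in 19 of 28 (67.9%) against 5 of 38 (13.2%) in the second. Its mean level did not follow these shares in the first capture, at 109.2 RPKM in Inha-positive and 129.4 RPKM in Inha-negative cells, whereas the second had 387 and 25.1 RPKM. Serpine2 was found in 31 of 36 (86.1%) against 10 of 19 (52.6%), and in 24 of 28 (85.7%) against 15 of 38 (39.5%). Of the 25 Inha-negative cells with Serpine2, 22 were positive for Dcn, as were 49 of all 57 Inha-negative cells, and their median Serpine2 was 33.6 RPKM. Of the 9 Inha-negative cells with Gatm, 8 were positive for Foxl2 and 5 for Dcn.

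Averaged over the 2 captures, the share in Inha-positive minus that in Inha-negative cells was 50.2 ± 6.42 percentage points for Gatm (SD, n = 2), 45.04 ± 3.09 for Apoa1, 44.02 ± 5.36 for Kazald1, 43.2 ± 21.8 for Lect1 and 39.9 ± 9.02 for Serpine2. Inha-positive cells also held more detected genes, with medians of 5113 and 4182, against 4407 and 3436 in Inha-negative cells, and the part of this in the shares was not tested. With only cells of at least 2000 detected genes, the differences were 45.8 points for Lect1, 46.7 for Apoa1, 45.6 for Kazald1, 48.7 for Gatm and 38.8 for Serpine2.

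**Figure D2:**
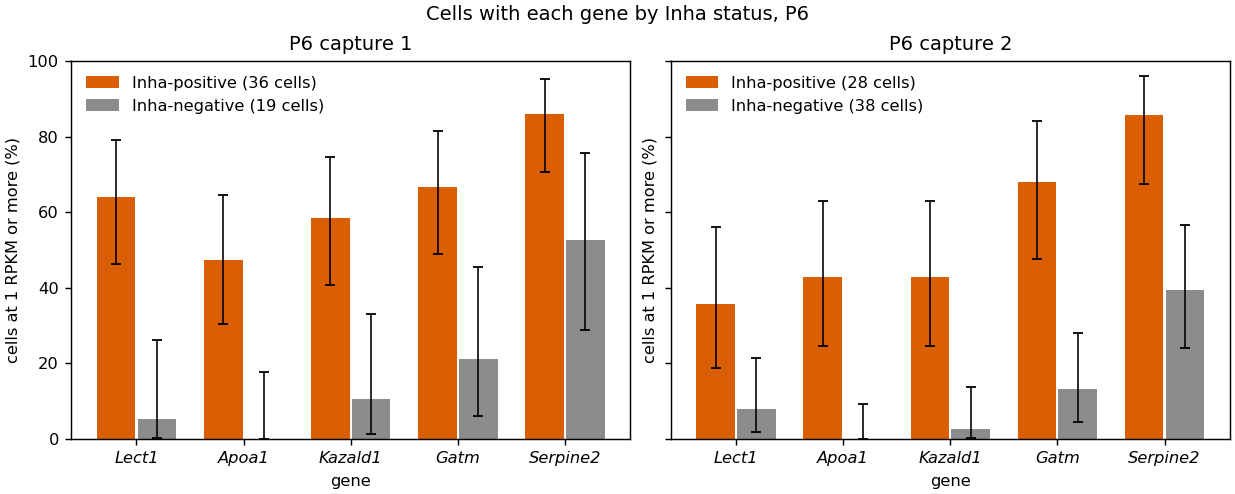
Share of P6 cells at 1 RPKM or more of each gene, in Inha-positive and Inha-negative cells of each capture, with exact 95% binomial intervals that cover counting error only. Apoa1 has 0 positive cells among Inha-negative cells in both captures, and Serpine2 has the highest share in both cell groups.

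The Inha-positive cells were compared with granulosa cells by marker genes, and the name granulosa rests here on such genes alone. Of 12 genes of growing follicle granulosa, Inha itself among them, 12 had a higher mean in Inha-positive than in Inha-negative cells in the first P6 capture and 9 in the second, and of 8 stromal genes 0 did in either. The summed level of the granulosa list ranged from 42.7 to 19730 RPKM in Inha-positive and from 0 to 907 RPKM in Inha-negative cells of the first capture. In the second it ranged from 6.20 to 10023 RPKM and from 0 to 2328 RPKM. The sums include Inha, by which the cells were split and which alone reached 13204 and 6924 RPKM in the first and second capture. The split therefore fixes part of this gap, and it fixes the place of Inha in the counts of genes. The share of all genes with a higher mean in Inha-positive cells was not computed. Neither the sums nor the counts test the name granulosa. Amh, which encodes anti-Müllerian hormone, was found in 13 of 36 and 9 of 28 Inha-positive cells and in 0 Inha-negative cells. Fshr, the gene of the receptor for follicle-stimulating hormone, was found in 6 of 36 Inha-positive cells of the first capture and was at 0 in all 28 of the second. Foxl2 did not mark these cells off, with 24 of 36 and 20 of 28 Inha-positive cells against 10 of 19 and 21 of 38 Inha-negative cells. Stromal sums ranged from 0 to 8204 RPKM in Inha-positive and from 0.211 to 6353 RPKM in Inha-negative cells of the first capture, and from 0 to 5662 and from 0 to 8383 RPKM in the second. Of 5 genes of steroidogenic theca cells, 1 and 2 had a higher mean in Inha-positive cells of the first and second capture. Their summed levels ranged from 0 to 13222 RPKM in Inha-positive and from 0 to 158.5 RPKM in Inha-negative cells of the first capture. In the second they ranged from 0 to 4094 and from 0 to 196 RPKM. The theca genes Cyp17a1 and Insl3 were at 0 in all Inha-positive cells of both captures, and the part of these sums in the results was not tested. Of 9 oocyte genes, 8 and 7 were at 0 in all Inha-positive cells, while Zp3, which encodes a zona pellucida protein, was found in 4 of 36 and 1 of 28 of them. Of 5 endothelial genes 0 and 3 had a higher mean in Inha-positive cells, and Cdh5, which encodes a cadherin of vessel walls, was found in 3 of 36 and 2 of 28 Inha-positive against 7 of 19 and 7 of 38 Inha-negative cells. The oocyte gene Gdf9 and the endothelial gene Pecam1 were at 0 in every P6 cell. The part of these cells in the results was not tested.

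The Inha-positive cells were not uniform. They were ranked by Inha and divided into 4 equal groups, a description chosen after the values were seen, and the group with the lowest Inha held few cells with the 3 genes that were rare before birth. In the first P6 capture the lowest 9 cells had Inha at 12.4 to 115.6 RPKM, and 1 was positive for Lect1, 1 for Apoa1, 0 for Kazald1, 2 for Gatm and 5 for Serpine2, while 7 were positive for Dcn. In the second the lowest 7 cells had Inha at 1.24 to 59.8 RPKM, and 1 was positive for Lect1, 1 for Apoa1, 0 for Kazald1, 3 for Gatm, 5 for Serpine2 and 4 for Dcn. In the group with the highest Inha Dcn was found in 1 of 9 and 0 of 7 cells and Serpine2 in all 9 and 7. Median detected genes were 5552 in the highest and 3971 in the lowest group of the first capture, and 4296 and 3974 in the second. With the Dcn-positive cells taken out of the Inha-positive cells alone, which leaves out cells where the genes were rarer, the differences to all Inha-negative cells were 53.4 points for Lect1, 56.7 for Apoa1, 58.4 for Kazald1, 58.3 for Gatm and 51.4 for Serpine2. With them taken out of both, 24 and 20 Inha-positive cells stood against 3 and 5 Inha-negative ones. The differences were then 40 points for Lect1, 56.7 for Apoa1, 65 for Kazald1, 22.1 for Gatm and 67.5 for Serpine2, each resting on those 8 Inha-negative cells.

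**Figure D3:**
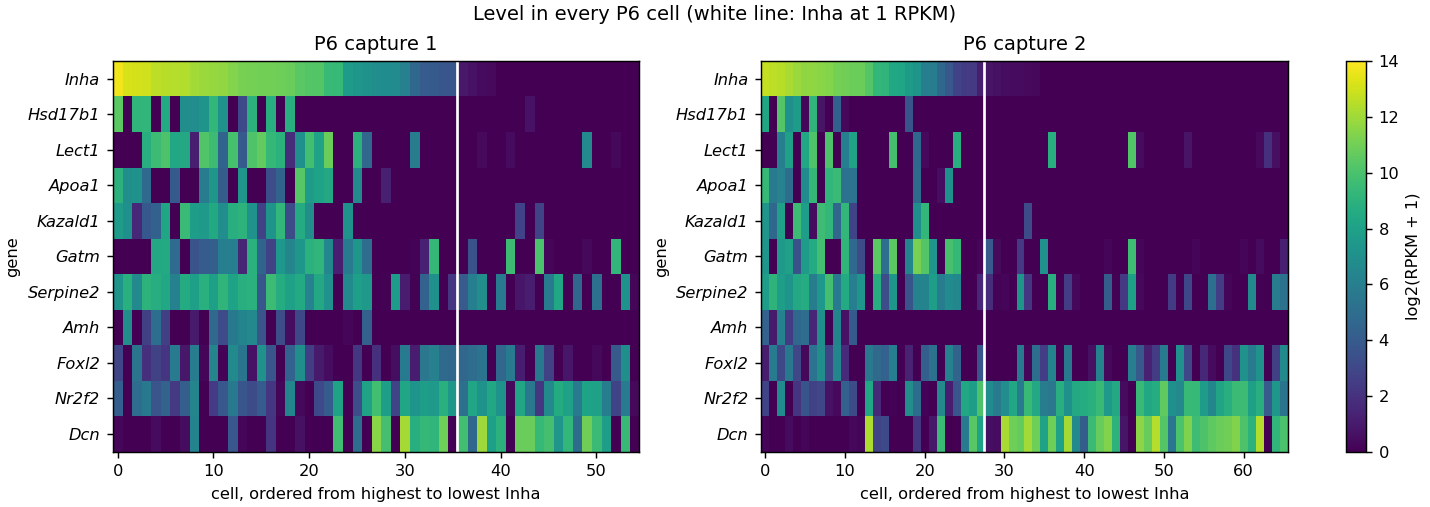
Level of each gene in every P6 cell as log2(RPKM + 1), with cells ordered from the highest to the lowest Inha within a capture and a white line at 1 RPKM of Inha. Lect1, Apoa1 and Kazald1 fill the left of each panel in patches that differ between genes, and Dcn and Nr2f2 fill the right.

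The levels of the 5 genes within Inha-positive cells spanned wide ranges, all from 0 upward. Serpine2 varied least, with a coefficient of variation of 86.6% over 36 cells in the first P6 capture and 119.4% over 28 cells in the second, and quartiles of 57.8 and 389 RPKM and of 43.3 and 227 RPKM. Inha itself varied by 117.4% and 115.03%. Gatm had coefficients of 168% and 149.1%, Kazald1 of 146.6% and 175%, Lect1 of 134.7% and 205%, and Apoa1 of 246% and 205%. Hsd17b1 varied by 194% and 290%. Genes were compared if their mean in these cells was at least 10 RPKM and at least 10% of the cells were positive. Of those genes, 7.28% of 5437 and 10.1% of 5024 had a lower coefficient than Serpine2, and 64.9% and 36.6% a lower one than Apoa1. Of the 5 genes, 8 of 36 and 5 of 28 Inha-positive cells were positive for all, and 2 and 4 for 0. Among Inha-negative cells 4 of 19 and 21 of 38 were positive for 0 of the 5 and no cell was positive for more than 3.

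The genes differed in how closely they followed Inha. Over the Inha-positive cells of a capture, which share a chip run and differ in depth, Pearson's r of log2(RPKM + 1) with Inha was 0.67 and 0.50 for Kazald1, 0.65 and 0.54 for Serpine2, 0.45 and 0.51 for Apoa1, 0.47 and 0.27 for Lect1, and 0.19 and 0.13 for Gatm (n = 36 and 28 cells, first and second capture). These are descriptions with no test, and r with the number of detected genes reached 0.61 for Kazald1 in the second capture. Among the 5, Kazald1 and Serpine2 had an r of 0.63 and 0.54, Lect1 and Gatm of 0.57 and 0.36, and Apoa1 and Gatm of 0.15 and 0.081. All 21 and 12 Inha-positive cells with Kazald1 also held Serpine2. Lect1-positive Inha-positive cells had a median Inha of 2162 and 2322 RPKM, against 110 and 435 RPKM in Inha-positive cells without Lect1. For Gatm the medians were 1975 and 1824 RPKM with it and 112.9 and 309 RPKM without it. In the first capture Gatm was found in 4 of the 9 cells with the highest Inha, and in all 9 cells of each of the next 2 groups. In the second it was found in 6, 4, 6 and 3 of 7 cells from the highest to the lowest group, so the low share at the highest Inha was seen in 1 capture.

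**Figure D4:**
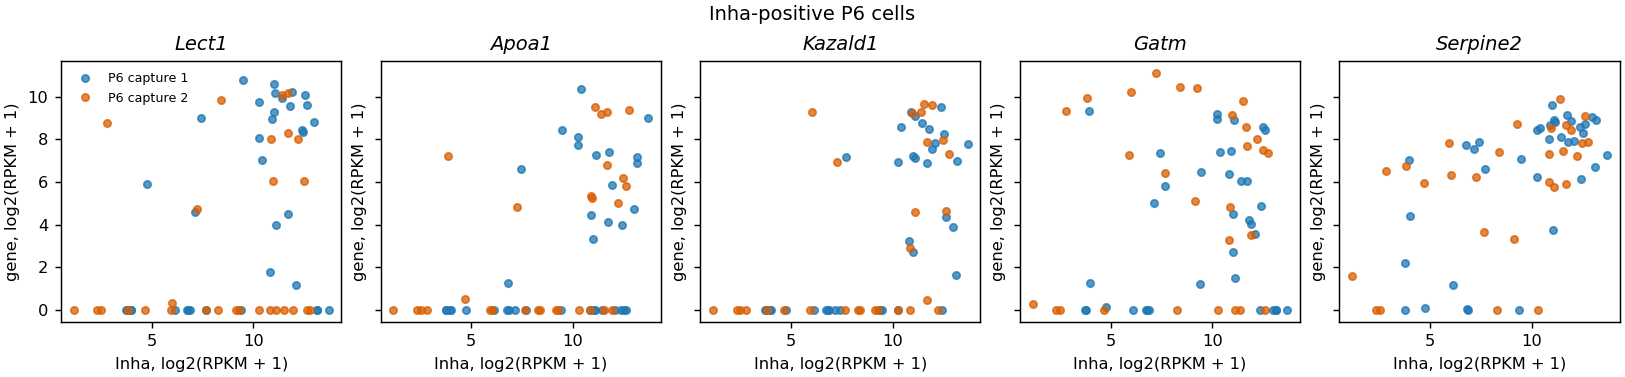
Level of each gene against Inha, both as log2(RPKM + 1), in the 36 and 28 Inha-positive cells of the P6 captures, each point 1 cell. Kazald1 is detected almost only at high Inha, whereas Gatm has high cells along the whole Inha range.

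Hsd17b1 marked a smaller set of P6 cells, 13 of 55 and 7 of 66, and every one of them was also Inha-positive. In the first capture all 13 were positive for Kazald1 and Serpine2, 11 for Lect1, 9 for Gatm and 8 for Apoa1. In the second all 7 were positive for Serpine2, 6 for Gatm, 5 for Apoa1, 4 for Kazald1 and 3 for Lect1. Against them stood the Hsd17b1-negative cells with Kazald1 in 10 of 42 and 9 of 59, Lect1 in 13 of 42 and 10 of 59, Apoa1 in 9 of 42 and 7 of 59, Gatm in 19 of 42 and 18 of 59, and Serpine2 in 28 of 42 and 32 of 59. Within Inha-positive cells of the first capture, 0 of the 15 without Kazald1 held Hsd17b1, but in the second 3 of the 16 without it did. Before birth 4 of 541 cells were positive for Hsd17b1, and 0 of these held Lect1, Apoa1 or Kazald1.

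By likeness over all P6 cells, taken as the lower of the 2 captures' r among 6988 genes positive in at least 10% of cells of both, Inha was the first gene for Apoa1 (0.58) and Serpine2 (0.64) and the second for Kazald1 (0.65). Ephx2, the gene of soluble epoxide hydrolase, stood first for Kazald1 (0.67) and among the 3 nearest of Apoa1 (0.54) and Serpine2 (0.58). Tox2, which encodes an HMG-box protein, was among the 3 nearest of Kazald1 (0.64), Gsta4, a glutathione transferase gene, second for Apoa1 (0.58), and Ivns1abp second for Serpine2 (0.62). Lect1 and Gatm had other nearest genes. For Lect1 they were Serpine2 (0.51), Itga6 (0.51), the gene of a laminin-binding integrin chain, and Map1b (0.51), a microtubule-associated protein gene, and Inha ranked 23. For Gatm they were Itga6 (0.56), RP23.415L22.2 (0.54), which has a clone name, and Sdc4 (0.53), a cell-surface proteoglycan gene, and Inha ranked 86. Hsd17b1 ranked between 80 for Kazald1 and 1543 for Gatm.

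Of the cells with Gatm, 30 were Foxl2-positive and 29 Foxl2-negative at E13.5, and 19 and 29 at E16.5. Gatm was nonetheless more frequent among Foxl2-positive than among Foxl2-negative cells at both stages. At E13.5 it was found in 18 of 19 Foxl2-positive cells (94.7%) against 20 of 34 Foxl2-negative cells (58.8%) in the first capture, and in 12 of 14 (85.7%) against 9 of 39 (23.1%) in the second. At E16.5 the counts were 11 of 12 (91.7%) against 15 of 43 (34.9%), and 8 of 11 (72.7%) against 14 of 29 (48.3%). All 4 captures thus had the higher share in Foxl2-positive cells, and mean levels were 233 to 285 RPKM against 69.8 to 81.7 RPKM at E16.5. Of 12 fetal pregranulosa markers, Gatm-positive cells held a median of 7 and 8 at E13.5, against 4 and 4 in cells without Gatm. By the Inha gate Gatm was likewise more frequent in positive cells in all captures of E12.5, E13.5 and E16.5, with differences between 16.3 and 49.4 points. At E10.5 it was found in 0 of 7 Inha-positive against 7 of 64 Inha-negative cells. The E12.5 captures did not share a direction by Foxl2, with Gatm in 3 of 8 Foxl2-positive against 8 of 45 Foxl2-negative cells in the first, 0 of 1 against 7 of 52 in the second and 2 of 7 against 15 of 50 in the third.

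The few cells with Apoa1 at E13.5 and E16.5 made up a higher share of Foxl2-positive than of Foxl2-negative cells in all 4 captures. At E13.5 they were 5 of 19 against 1 of 34 in the first capture and 3 of 14 against 2 of 39 in the second. At E16.5 they were 3 of 12 against 3 of 43, and 1 of 11 against 0 of 29. At E12.5 no Foxl2-positive cell held Apoa1, with 0 of 8 against 2 of 45 in the first capture, 0 of 1 against 0 of 52 in the second and 0 of 7 against 3 of 50 in the third. The levels stayed low, at a mean of 1.63 and 3.88 RPKM in Foxl2-positive cells at E13.5. Split by Inha, Apoa1 was in 3 of 7 positive against 1 of 64 negative cells at E10.5. At E11.5 it was in 0 of 24 against 2 of 29, and 1 of 16 against 0 of 37. The E12.5 counts were 1 of 12 against 1 of 41, 0 of 15 against 0 of 38, and 2 of 24 against 1 of 33. Those of E13.5 were 4 of 24 against 2 of 29, and 3 of 24 against 2 of 29. Those of E16.5 were 4 of 12 against 2 of 43, and 1 of 10 against 0 of 30.

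The cells with Serpine2 differed between stages. At E13.5 it was found in 3 of 24 Inha-positive cells against 7 of 29 Inha-negative cells in the first capture, and in 4 of 24 against 11 of 29 in the second, differences of -11.6 and -21.3 percentage points. The mean level was 0.477 and 2.21 RPKM in Inha-positive cells against 4.45 and 12.6 RPKM in Inha-negative cells. At E11.5 the counts were 4 of 24 against 9 of 29, and 2 of 16 against 6 of 37. At E12.5 they were 1 of 12 against 6 of 41, 2 of 15 against 6 of 38, and 3 of 24 against 7 of 33. These counts are small, and the second E12.5 capture was shallow. All 7 captures of E11.5, E12.5 and E13.5 had the lower share in Inha-positive cells, and both P6 captures had the higher one. The E10.5 capture also had the higher one, with 5 of 7 Inha-positive (71.4%) against 22 of 64 Inha-negative cells (34.4%). The E16.5 captures did not share a direction, with 2 of 12 against 7 of 43 and with 0 of 10 against 9 of 30. Serpine2-positive cells held a median of 3 and 3 of the 12 pregranulosa markers at P6, against 2 and 2 in cells without it, and at E16.5 they held 1 and 2 against 6 and 5. Pearson's r of Serpine2 with Dcn over all cells of a capture was -0.56 and -0.59 at P6 (n = 55 and 66) and 0.57 and 0.42 at E16.5 (n = 55 and 40), again a description. The difference between stages was not tested, since cells of a capture are not replicates.

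**Figure D5:**
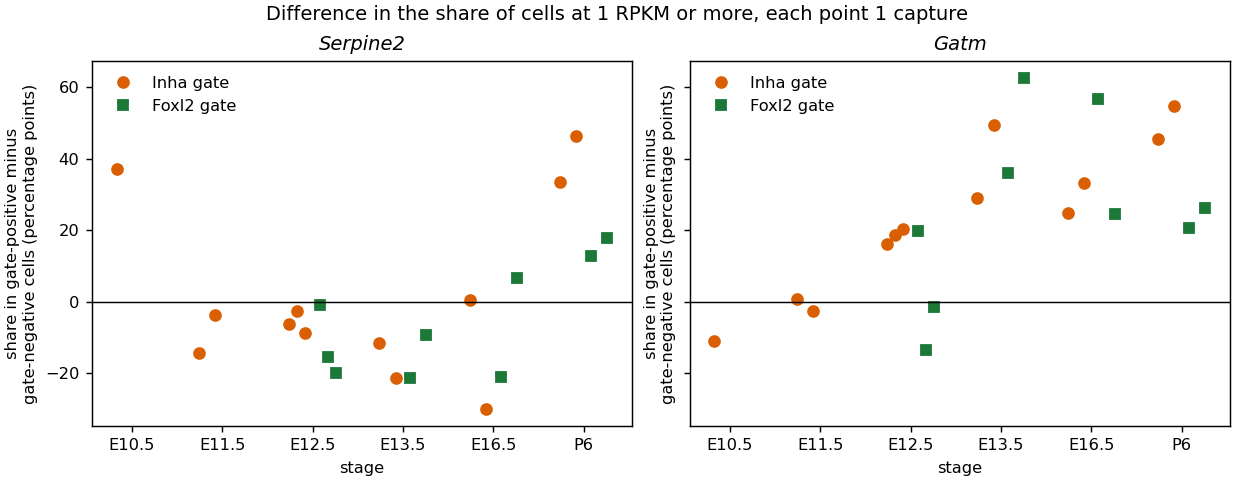
Share of cells at 1 RPKM or more in gate-positive minus gate-negative cells, in percentage points, for Serpine2 and Gatm with Inha or Foxl2 as the gate, each point 1 capture. Serpine2 lies below 0 for Inha in all captures of E11.5 to E13.5 and above 0 at P6 and in the E10.5 capture, while Gatm lies above 0 from E13.5 on with both gates; the second E12.5 capture had 1 Foxl2-positive cell.

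The genes around the 5 in their pathways were counted in P6 against E16.5, the contrast that holds the P6 levels the members were selected on. limma called 57 of 19710 genes (0.289%), 40 of them higher (0.203%) and 17 lower. Lect1 and Apoa1 were among the 40, so 2 of 5 members were, which their selection fixes. Of 12 growing follicle granulosa genes 5 were called higher, with a median log2 change of 3.15 against 0 over all genes. Among them were Inha, at 1281 ± 716 RPKM at P6 and 21.95 ± 3.71 RPKM at E16.5 (SD, n = 2 captures each), and Hsd17b1, at 69.02 ± 44.4 and 0.140 ± 0.197 RPKM. Nr5a2, a nuclear receptor gene active in granulosa cells, had 11.2 ± 2.38 RPKM at P6 and 0.00251 ± 0.00355 at E16.5, and Amh had 7.06 ± 1.97 RPKM at P6 and was listed at 0 at E16.5. The adjusted p in limma was 0.0228 for Inha, 0.0202 for Hsd17b1, 0.011 for Nr5a2 and 0.0114 for Amh.

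In the pathways of the 5 genes few others passed. Of 11 tested genes of lipoprotein and cholesterol handling, Apoa1 alone was called and the median log2 change was 0. Of 11 tested vessel growth regulators Lect1 alone was called, with a median of 0.41. Of 4 tested genes of creatine synthesis and use 0 were called (median 0.24), and of 7 tested genes of the plasminogen and thrombin system 0 were (median -0.02). Of 12 genes of the insulin-like growth factor system 1 was called, the fetal growth factor gene Igf2, which fell to 2.34 ± 0.910 RPKM at P6, against 46.1 ± 7.90 RPKM at E16.5 (SD, n = 2 each, adjusted p = 0.011 in limma). Of 4 tested endothelial genes Cdh5 was called higher, at 8.21 ± 2.21 RPKM at P6 and 0.0427 ± 0.0604 at E16.5 (adjusted p = 0.0284 in limma). Of 12 fetal pregranulosa genes, 8 stromal genes and 7 surface epithelial genes 0 were called, with median log2 changes of -0.49, 0.76 and -2.57. The number of called genes rested on single captures. It was 36 without the E10.5 capture, 28 and 26 without the first and second E11.5 capture, 20 and 19 without the first and second E13.5 capture, 184 and 270 without the first and second E16.5 capture, and 285 and 369 without the first and second P6 capture.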

How the data were processed

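The data were 1 table with a column for each of 663 samples. No unit was named in it, and the authors' deposited values were taken as RPKM because 73.1% of low values (median over cells) came within 0.03 of whole reads once multiplied by gene length. Reads were not recovered, so a count model was not fitted. The submitters' processing notes give GRCm38.p3 (mm10) as the build. The aligner, the counter, its strand setting and cell filters: not given in the sources used here. The protocols name no molecular identifiers, so intervals and limits for a count of 0 cover counting error only. The labels state 10M reads of 100 bp per cell.

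The members and gene lists were chosen with earlier results of these data known. Positions came from GENCODE vM21, and 27 date-like gene names were left out. 1 cell with a repeat library (r = 0.996, against at most 0.802 for any other pair) was averaged, which left 662 cells. No cell was removed, and no doublet caller was run. Captures and the 2 sequencing series were read from sample titles. All captures of E16.5 and P6 and the third of E12.5 belong to 1 series, and the other 7 captures to the other. Nothing in the labels says that captures were separate litters, so the p-values reflect a spread between captures that may be technical.

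limma 3.58.1 in R 4.3.3 was fitted with an intensity trend to log2(capture mean RPKM + 1), stage and series, over the 19710 genes whose mean reached 1 RPKM in at least 1 capture. It left 5 residual degrees of freedom and used the Benjamini-Hochberg method at 0.05. Fold changes on this scale understate those of low genes. Tested on simulated data, the fit missed many of the genes given a known change, so a gene that did not pass is not shown to be unchanged. Shares, quartiles, coefficients of variation and r were computed in Python 3.11.15 with pandas 2.3.3 and scipy 1.17.1, with exact (Clopper-Pearson) 95% intervals. Genes were named by a rule: the 5 members, Inha, Hsd17b1, the 3 genes most like each member at P6, leaving out provisional names of the Gm and Rik kinds, and up to 4 called members per list by adjusted p. Nr2f2, Dcn, Foxl2, Fst, Fshr, Gdf9, Zp3, Pecam1, Cyp17a1 and Insl3, and Amh for its cells at P6, are fixed list markers that were named outside this rule after their values were seen. The other lists, for steroidogenic, blood and immune, Sertoli and cell cycle genes, had 0, 0, 1 and 0 genes called in P6 against E16.5, the 1 being Amh, which the granulosa list also holds, and of 5 oocyte genes tested 0 were called.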

Additional observations from a re-analysis of the deposited data

Results flagged for a closer look

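Serpine2, the protease inhibitor gene, stood in different cells at different stages. At P6 its share was higher in Inha-positive than in Inha-negative cells of both captures, by a mean of 39.9 percentage points. In every capture of E11.5, E12.5 and E13.5 it was lower, with means of -9.04, -5.82 and -16.5 points. The smallest of these differences rest on few cells. They were -3.72 points in the second E11.5 capture, with 2 of 16 Inha-positive cells, and -2.46 in the second E12.5 capture, with 2 of 15. The single E10.5 capture went the way of P6, by 37.1 points, with 7 Inha-positive cells, and the E16.5 captures did not share a direction. With Foxl2 in place of Inha the mean difference was 15.3 points at P6, against -12.1 at E12.5 and -15.3 at E13.5, with every capture of a stage on the same side. The second E12.5 capture rests there on 1 Foxl2-positive cell and on shallow reads. The first differed by only -0.833 points, with 1 of 8 Foxl2-positive against 6 of 45 Foxl2-negative cells. The third had 0 of 7 against 10 of 50, so the shared side at E12.5 rests on few cells. These results stand out because all captures of a stage go one way and both P6 captures the other; the difference between stages was not tested. No group has 4 or more captures, so single captures could not be set against the rest of their stage.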

How the results depend on the processing

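No paired analysis was possible because the sample titles give no replicate number that captures of different stages share. Of the genes tested in E13.5 against E11.5, 0% were called. With every gene above 0 it was 0.178% (48 genes), with the mean over cells of log2(RPKM + 1) 0.0304% (6 genes), and with neither a series term nor the second E12.5 capture 0.00516% (1 gene). Leaving out 1 capture gave 0% to 1.12%. In P6 against E16.5, 0.289% were called, and the same 3 settings gave 0.378%, 0.649% and 0.614%. The first of these is a higher count, by more than 1.5 times, over more genes. Leaving out 1 capture gave 0.0974% to 1.89%. The cause of these shifts was not tested. Where 1 capture was left out of a stage with 2, the lone capture was assumed to vary like the rest. Leaving out 1 capture put the log2 change in E13.5 against E11.5 between -0.22 and 1.05 for Lect1, between -0.61 and 0.0625 for Kazald1 and between -0.50 and 1.55 for Serpine2. Lect1 turned to -0.22 without the first E11.5 capture, Kazald1 to 0.0625 and Serpine2 to -0.50 without the second, and Serpine2 to -0.12 without the second E13.5 capture; none passed in any setting. Gatm kept its direction in all 20 settings, at 3.28 or more.

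Each P6 share and each coefficient of variation moved by less than the SD between captures when a threshold or cell filter was changed. Leaving out 1 of 2 captures always moves a mean by less than their SD, so it is no check of the shares. The Lect1 share went from 31.7% to 19.7% without the first P6 capture and to 43.6% without the second. The lead of Inha-positive cells at P6 was above 0 for all 5 genes in every setting. The genes were selected on their P6 levels in granulosa cells, and the share of all genes with such a lead was not computed. The lead over the settings is thus a description with no background. With values above 0 as positive it was 40.2 points for Gatm and 25.5 for Serpine2. With Hsd17b1 as the gate it was 49.8 for Apoa1, 59.04 for Kazald1 and 39.6 for Gatm. Without Dcn-positive cells among the Inha-positive ones alone, a setting chosen after seeing the data, it was 56.7 for Apoa1, 58.4 for Kazald1, 58.3 for Gatm and 51.4 for Serpine2. Without them in both groups, also chosen after seeing the data and with 3 and 5 Inha-negative cells left, it was 56.7 for Apoa1, 65 for Kazald1, 22.1 for Gatm and 67.5 for Serpine2. Leaving out either P6 capture gave 27.8 to 58.6 points for Lect1, 42.9 to 47.2 for Apoa1, 40.2 to 47.8 for Kazald1, 45.6 to 54.7 for Gatm and 33.5 to 46.2 for Serpine2. Among fetal differences, tried in settings chosen after seeing the data, Serpine2 by Foxl2 at E16.5 (-7.17 points) turned to 3.97 with values above 0 and to 6.58 without the first E16.5 capture, and was -20.9 without the second, and those of Gatm by Foxl2 and of Serpine2 by Inha at E13.5 kept their sign. With 2 captures a stage and 40 to 66 cells each at E16.5 and P6, shares of a few percent could not be told from 0.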
